A study of Mus musculus with 35 samples.

Results

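The keratin genes of mouse, the intermediate filament genes that give epithelial cells their cytoskeleton, were followed through 35 RNA-seq libraries of colon tumour organoids. Members were all protein-coding genes whose symbol is Krt followed by a number and at most 1 letter, which gave 53 of the 54354 genes in the deposited table. Of these, 28 encode type I and 25 type II keratins, on chromosomes 11 (27 genes) and 15 (26 genes). The organoids, self-organised epithelial cultures, carry the genotype labelled AKP in all groups and were grown in vitro. The groups were carmofur (15 libraries) against its own controls (12 libraries), and palmitic acid batch 1 (3 libraries) and batch 2 (2 libraries) against 1 shared group of palmitic acid controls (3 libraries). Carmofur inhibits ceramidase, which need not be its only action, and palmitic acid is a saturated fatty acid from which cells build ceramides. The design compares gene expression in treated organoids with that in their own controls. It cannot separate an effect of ceramide from other effects of either treatment. The labels give no dose, duration or number of organoid lines or animals, and leave unsaid whether replicates were grown as separate cultures. The p-values then reflect variation among libraries alone, possibly technical.

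Keratin filaments are obligate heteropolymers of 1 type I and 1 type II chain, and epithelia are told apart by the pairs they use. Simple epithelia such as the colon use Krt8 with Krt18, Krt19 and Krt20, and ducts add Krt7. Stratified squamous epithelia use Krt5 with Krt14 in basal cells, Krt4 with Krt13 in the suprabasal layers of oesophagus and other mucosae, and Krt6a where tissue is stressed or wounded. Hair keratins such as Krt32, Krt33a and Krt33b are the cysteine-rich chains of the hair shaft, and Krt25 to Krt28 with Krt71 to Krt73 belong to the inner root sheath.

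No count was recorded for 14 of the 53 keratins in any library, and 39 had at least 1 count. The palmitic acid fit tested 22 keratins and the carmofur fit 19, of which 17 were common to both, and 15 keratins with counts were tested in neither. Levels are CPM, counts scaled by the library's TMM-adjusted depth, and each experiment was scaled on its own. Total counts ran between 3127275 and 10609563 for carmofur and between 1663750 and 8124707 for its controls. They ran between 2138905 and 2845017 for batch 1, between 2406582 and 3742289 for batch 2 and between 762888 and 2511723 for the palmitic acid controls. By their numbers, the carmofur and control libraries form 9 sets of 3 and 3 larger blocks, which the labels do not call batches. In principal components of the carmofur experiment 3 libraries stood apart, carmofur 8, carmofur 10 and carmofur control 1. The summed mesenchymal markers were at 0 in batch 1 and in the palmitic acid controls, and their highest level in any carmofur-experiment library was 6.84 CPM. Immune markers, mostly Cd68, summed to 57.2 CPM with carmofur (7.36 to 166) and 49.9 CPM in its controls (26.8 to 93.2). In batch 1, batch 2 and their controls they averaged 30.1, 29.1 and 37.9 CPM. Endothelial markers, mostly Pecam1, averaged 13.9 CPM with carmofur and 14.3 CPM in its controls. Whether such cells were present was not tested.

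Simple keratins made up most of the keratin RNA in every group. Their share of all keratin counts was 81.2% ± 6.58 with carmofur and 89.6% ± 3.11 in its controls (SD, n = 15 and 12). It was 80.4% ± 0.567 in palmitic acid batch 1, 75.1% ± 1.12 in batch 2 and 84.9% ± 2.45 in the palmitic acid controls (SD, n = 3, 2 and 3). The colon label was borne out by Epcam, Cdh17 and Vil1, which had counts in all libraries, while Trp63, which marks squamous basal cells, had none in any. Per kb of transcript, Krt19 was at the top of the order in every group. Krt19 averaged 559 CPM per kb with carmofur and 448 in its controls, against 221 and 220 CPM per kb for Krt18. Krt8 followed with 183 CPM per kb with carmofur and 156 in its controls. In the palmitic acid controls, Krt19 (223 CPM per kb) and Krt18 (201 CPM per kb) lay close together, ahead of Krt8 (127 CPM per kb) and Krt7 (53.7 CPM per kb). Summed per kb, type I exceeded type II keratins 2.61 ± 0.403 times with carmofur and 3.04 ± 0.467 times in its controls.

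**Figure D1:**
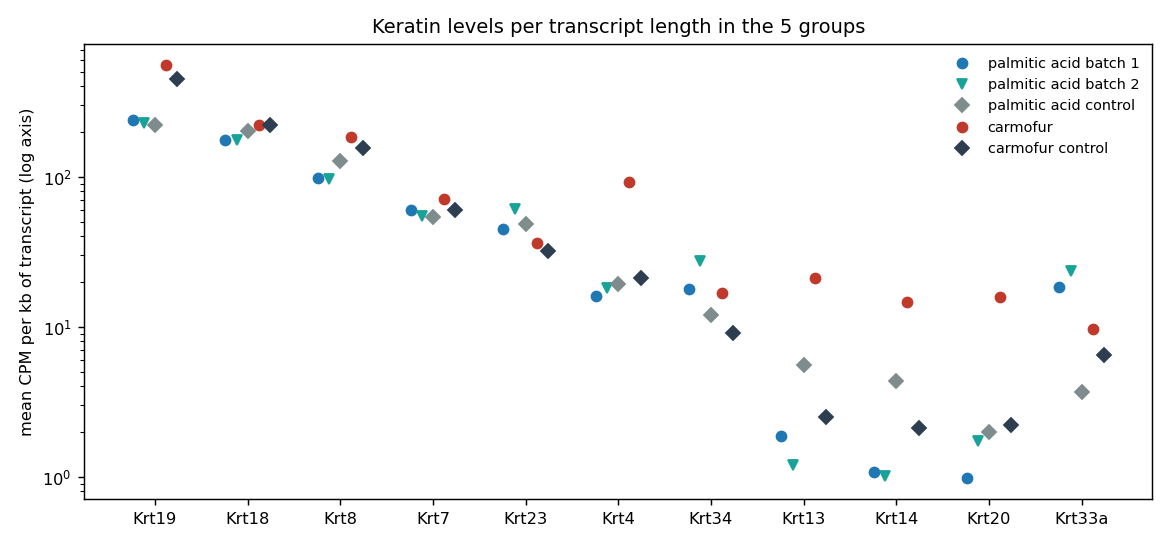
Mean CPM per kb of transcript (vertical log axis) of 11 keratins in the 5 groups, each experiment scaled on its own. Krt4 stood at 92.9 CPM per kb with carmofur and 21.0 in its controls, and Krt33a at 18.3 and 23.6 in the palmitic acid batches and 3.69 in their controls.

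With carmofur, 3 squamous keratins (Krt4, Krt13 and Krt14) and 1 simple keratin (Krt20) rose, while the main simple pair Krt8 and Krt18 did not pass the test. Of the 19 keratins tested, 4 rose and 0 fell at an adjusted p under 0.05 (edgeR quasi-likelihood test, Benjamini-Hochberg over all genes), where 5.21% of the 9992 genes tested rose and 3.8% fell. All 9 keratins with an unadjusted p under 0.05 were higher. The share over all genes at that threshold was not computed, so this is a description and not a result about keratins. The expression filter also favours genes that are high in the larger carmofur group. Without the filter, where 3541 of 24076 genes were called, most keratins called were again higher. Krt42 (log2 fold change -3.83) and Krt86 (-3.31) were called lower, each resting mostly on 1 control library. Carmofur control 6 held 15 of the 16 Krt42 counts, and carmofur control 7 held 38 counts of Krt86. The median log2 fold change of the 5 squamous keratins Krt4, Krt13, Krt14, Krt15 and Krt6a was 2.27, against 0 over all genes tested. Their summed level was 267 ± 132 CPM with carmofur and 54.5 ± 15.3 CPM in controls. The 5 were chosen with earlier results of these data known. Krt13, Krt15 and Krt6a were low in most controls and entered the fit largely through carmofur libraries. So did Krt14, which was low in part of the controls. The median and the sum are therefore descriptions and not tests. In bulk RNA, more cells of a type and more RNA per cell cannot be told apart.

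Krt4, the type II keratin of suprabasal mucosal cells, ranged between 72.1 and 407 CPM with carmofur (median 203), against 25.0 to 89.5 CPM in controls (median 42.7). In 14 of the 15 carmofur libraries it lay above every control. The test gave Krt4 a log2 fold change of 2.14 ± 0.23 (SE; adjusted p = 1.03e-08). Per kb, Krt4 stood at 1.47 times the level of Krt7 in the median carmofur library, against 0.333 times in the median control library. The highest control ratio was 0.875.

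Krt13, the type I partner of Krt4, ranged between 0.889 and 110.0 CPM with carmofur (median 37.5) and between 0 and 16.7 CPM in controls (median 1.2995). The groups overlapped, with 10 of 15 carmofur libraries above every control and 14 above the control median. Its fitted log2 change was 3.07 ± 0.63 (adjusted p = 0.000574). Per kb, Krt13 reached 0.227 times the level of Krt4 in the median carmofur library and 0.0327 times in the median control library.

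Krt14, the type I keratin of squamous basal cells, ranged between 6.47 and 67.6 CPM with carmofur (median 23.5) and between 0.128 and 13.1 CPM in controls (median 1.505). It lay above every control in 11 of 15 carmofur libraries and above the control median in all 15. Krt14 rose by 2.84 ± 0.56 on the log2 scale (adjusted p = 0.000338). With counts summed by library set it did not pass (adjusted p = 0.0641). Krt5, the partner of Krt14 in skin, held 1 count in the 35 libraries, and Krt1 held 0. Krt14 shares 28.2% of its 31-base words with other genes, mostly Krt16, so part of its counts depends on how reads were divided.

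The other squamous keratins did not pass the test. Krt6a, induced in wounded epidermis, averaged 4.91 ± 5.91 CPM with carmofur and 0.974 ± 1.70 CPM in controls (log2 fold change 2.27 ± 0.90, adjusted p = 0.122). It was above the control median in all 15 carmofur libraries, and carmofur 13 to 15 held its highest levels, 12.3, 20.8 and 12.6 CPM. Krt6a shares 51.3% of its 31-base words with other genes, mostly Krt6b. Krt15, another basal keratin, averaged 3.72 ± 3.18 CPM with carmofur and 1.04 ± 1.51 CPM in controls (log2 fold change 1.87 ± 0.89, adjusted p = 0.234). Krt10, of the suprabasal epidermis, averaged 9.79 ± 6.73 and 10.8 ± 8.92 CPM (log2 fold change -0.14 ± 0.52, adjusted p = 0.945).

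Krt20, a keratin of differentiated intestinal surface cells, was the only keratin tested whose carmofur and control libraries did not overlap. It ranged between 13.6 and 53.1 CPM with carmofur (median 30.1) and between 0 and 11.5 CPM in controls (median 3.35). Over all genes tested, 0.59% had every carmofur library above every control. On the log2 scale it rose by 2.82 ± 0.51 (adjusted p = 0.000101). No 31-base word of Krt20 is shared with another gene.

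**Figure D2:**
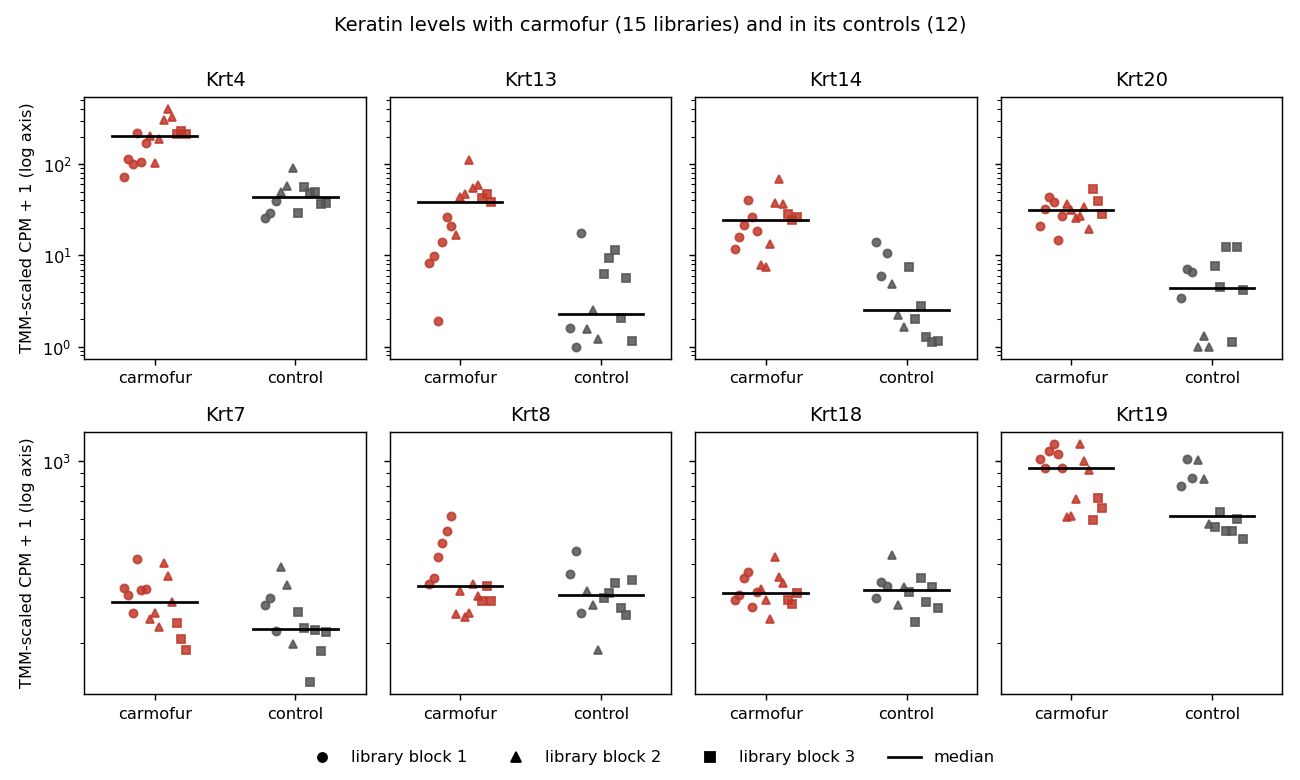
TMM-scaled CPM + 1 (vertical log axis) of 8 keratins in each carmofur and control library, with symbols for the library blocks and a bar at the median. Krt20 libraries do not overlap between groups, Krt4, Krt13 and Krt14 overlap in part, and Krt7, Krt8, Krt18 and Krt19 overlap broadly.

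The promoter windows of Krt20 and Krt13, which rose, are shown with that of Krt18, which did not pass. The Krt14 window is left out because it lies inside the gene as annotated, away from its 5′ end, and of 2 Krt13 windows the one at the annotated 5′ end is shown. They are RefSeq sequences of GRCm38.p6, from 250 bases before to 50 after the annotated start, written 5′ to 3′ on the gene's strand. Capitals mark matches, on either strand, to TATAAA (the core promoter box), TGANTCA (AP-1), CACCC (KLF and Sp factors) or, for CDX factors, TTTATNG. The windows are chr11:99438104-99438403 (minus strand) for Krt20, chr11:100121517-100121816 (minus strand) for Krt13 and chr15:102027966-102028265 (plus strand) for Krt18.
Krt20: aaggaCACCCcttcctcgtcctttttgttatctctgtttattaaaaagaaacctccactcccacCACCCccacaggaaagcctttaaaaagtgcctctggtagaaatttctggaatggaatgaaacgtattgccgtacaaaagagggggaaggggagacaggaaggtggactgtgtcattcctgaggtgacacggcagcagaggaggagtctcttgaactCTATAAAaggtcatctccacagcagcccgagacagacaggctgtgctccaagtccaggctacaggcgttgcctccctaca
Krt13: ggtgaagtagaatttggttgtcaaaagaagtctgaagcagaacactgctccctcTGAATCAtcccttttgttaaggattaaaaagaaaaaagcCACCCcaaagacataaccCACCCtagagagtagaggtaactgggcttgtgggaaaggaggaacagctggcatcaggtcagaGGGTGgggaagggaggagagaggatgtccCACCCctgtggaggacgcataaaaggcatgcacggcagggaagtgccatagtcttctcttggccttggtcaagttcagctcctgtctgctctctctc
Krt18: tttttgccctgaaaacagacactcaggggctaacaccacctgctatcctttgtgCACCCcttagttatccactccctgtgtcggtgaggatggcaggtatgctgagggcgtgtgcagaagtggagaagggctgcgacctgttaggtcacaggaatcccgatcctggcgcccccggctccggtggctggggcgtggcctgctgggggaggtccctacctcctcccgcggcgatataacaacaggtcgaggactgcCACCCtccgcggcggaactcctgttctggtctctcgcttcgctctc
Krt20 had TATAAA at -29 from the start, and its CDX match at -30 is the same stretch read with 1 more base (CTATAAA). The Krt13 window shown had an AP-1 match at -196 and CACCC matches at -157, -139, -76 and -47. Its other window, chr11:100120528-100120827, had AP-1 matches at -183 and -34, a CACCC match at -25 and a CDX match at -243. Krt18 had CACCC matches at -196 and 4. TATAAA occurred in 19 of 37 keratin windows and 13.6% of all 32851 windows, CACCC in 31 and 57.5%, TTTATNG in 15 and 10.9%, and TGANTCA in 2 and 7.81%. The TTTATNG and TATAAA shares are not separate. In Krt12, Krt20, Krt25, Krt26, Krt42, Krt72, Krt73 and Krt84 a TTTATNG match is the TATAAA stretch read with 1 more base. These are descriptions of letters and not of bound sites.

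The 4 abundant simple keratins did not pass with carmofur. Krt18 had 318 ± 45.3 CPM with carmofur and 316 ± 49.5 CPM in controls, a log2 fold change of 0.01 ± 0.09 (adjusted p = 0.984). Its partner Krt8 had 358 ± 109 CPM with carmofur and 306 ± 66.7 CPM in controls (log2 fold change 0.23 ± 0.13, adjusted p = 0.373). Krt8 was highest in carmofur 4, 5 and 6, at 483, 538 and 613 CPM. It shares 32.3% of its 31-base words with other genes, mostly a processed copy, Krt8-ps.

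Krt7, typical of ducts, had 290.3 ± 68.3 CPM with carmofur and 247 ± 68.4 CPM in controls (log2 fold change 0.23 ± 0.13, adjusted p = 0.36). Krt19, a type I chain without the usual tail, had 881 ± 209 CPM with carmofur and 706 ± 189 CPM in controls (log2 fold change 0.32 ± 0.12, adjusted p = 0.11). Krt19 moved with library block in both groups: block 1 averaged 1036 CPM with carmofur and 892 in controls, and block 3 averaged 657 CPM with carmofur and 561 in controls. It passed in fits without carmofur control 1 to 3 (adjusted p = 0.0247), without carmofur 7 to 9 (0.0297) and without carmofur 13 to 15 (0.0269), and with limma-voom (0.032) or no filter (0.0391). Of the other simple-type keratins, Krt23 (log2 fold change 0.18 ± 0.20, adjusted p = 0.725) and Krt80 (-0.16 ± 0.70, adjusted p = 0.954) did not pass.

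No hair keratin passed with carmofur in edgeR as fitted here. Krt33a had 16.2 ± 8.42 CPM with carmofur and 10.9 ± 11.8 CPM in controls (log2 fold change 0.56 ± 0.54, adjusted p = 0.672). Krt36, of tongue papillae and nail, came nearest, with 7.80 ± 5.09 CPM with carmofur and 1.93 ± 2.58 CPM in controls (log2 fold change 2.01 ± 0.69, adjusted p = 0.064). Krt36 passed with DESeq2 (adjusted p = 0.0102), limma-voom (0.0125) and no filter (0.0431), and without carmofur control 4 to 6 (0.0388) or carmofur 7 to 9 (0.0352). Krt34, a hair cortex keratin, had 27.1 ± 13.8 CPM with carmofur and 14.6 ± 9.07 CPM in controls (log2 fold change 0.89 ± 0.37, adjusted p = 0.155), and it passed without carmofur 7 to 9 (adjusted p = 0.0464). Krt33b, Krt39 and Krt83 had log2 fold changes of -0.06 ± 0.59, 0.73 ± 0.88 and 1.02 ± 0.68, with adjusted p of 0.98, 0.762 and 0.473. Krt32 was too low for the carmofur fit and had no count in 4 of 15 carmofur and 7 of 12 control libraries.

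Krt4 rose within each library block, by log2 fold changes of 2.06 ± 0.35 in block 1, 1.98 ± 0.35 in block 2 and 2.40 ± 0.30 in block 3 (adjusted p = 0.000786, 0.000139 and 9.05e-07). In these blocks 0.791%, 4.74% and 3.72% of all genes tested rose. Krt13 rose in block 2 (6.18 ± 1.32, adjusted p = 0.00162) and block 3 (3.08 ± 0.87, adjusted p = 0.0253), and in block 1 its value was 1.07 ± 0.96 (adjusted p = 0.833). Krt14 rose in block 2 (3.86 ± 1.07, adjusted p = 0.0173) and block 3 (3.95 ± 0.85, adjusted p = 0.00207), and in block 1 its value was 1.24 ± 0.91 (adjusted p = 0.746). The test of the difference between blocks did not pass for Krt4, Krt13 or Krt14 (adjusted p = 0.957, 0.149 and 0.424).

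Krt20 passed the test of a difference between blocks (adjusted p = 0.0365, where 1.78% of all genes passed). Its log2 fold change was 2.56 ± 0.77 in block 1, 7.99 ± 1.17 in block 2 and 2.70 ± 0.64 in block 3. The block 2 value is not a bound on the change, because the 3 control libraries of that block held 1 count of Krt20 in all, against 1022 counts in the 6 carmofur libraries. Carmofur levels of Krt20 were 28.4 ± 10.9, 28.0 ± 6.12 and 39.5 ± 12.9 CPM in the blocks in order, against 4.69 ± 2.02, 0.102 ± 0.176 and 6.08 ± 4.67 CPM in controls. Without the 3 libraries that stood apart the difference did not pass (adjusted p = 0.0558).

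**Figure D3:**
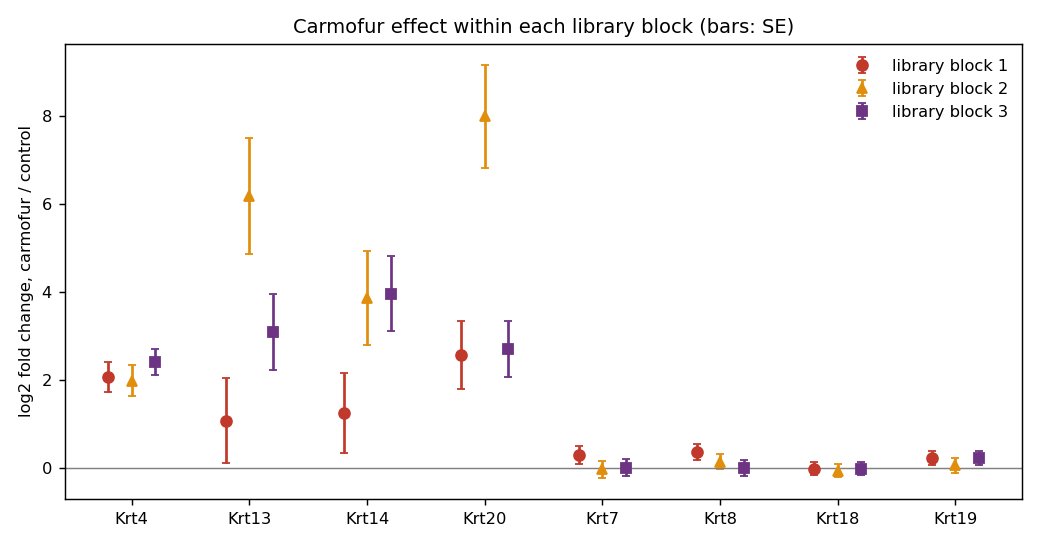
Log2 fold change of carmofur over control (vertical axis) for 8 keratins within each of the 3 library blocks, with SE bars. Krt4 lies between 1.98 and 2.40 in all blocks, Krt20 reaches 7.99 in block 2, and Krt7, Krt8, Krt18 and Krt19 lie between -0.07 and 0.35.

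Of 10 desmosome genes tested with carmofur, 3 passed, and of 7 keratin linkers and hemidesmosome genes 1 passed, where 9.02% of all genes tested passed. Dsp (desmoplakin, which ties keratins to desmosomes) rose by 0.53 ± 0.15 on the log2 scale (adjusted p = 0.0162) and Dsc2 (a desmosomal cadherin) by 0.46 ± 0.12 (adjusted p = 0.0117). Pkp1, a desmosomal plaque protein of stratified epithelia, fell by 0.64 on the log2 scale (SE 0.18, adjusted p = 0.015), at 40.1 ± 12.3 CPM with carmofur and 62.5 ± 16.2 CPM in controls. The linker that passed was Macf1, a cytoskeletal crosslinker, which rose (log2 fold change 0.93 ± 0.29, adjusted p = 0.0355). None of 5 other intermediate filament genes and 13 transcription factors linked to keratin genes passed.

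Among 8 markers of stratified squamous epithelium, 4 were tested and 0 passed with carmofur. Their summed level was 81.5 CPM with carmofur (20.4 to 135) and 41.5 CPM in controls (18.2 to 98.2), Trp63 and Krt1 were at 0 in all libraries, and the part of such cells in the squamous keratin result was not tested. Sprr1a, a cornified envelope precursor, averaged 45.3 ± 25.0 CPM with carmofur and 21.2 ± 19.5 CPM in controls (log2 fold change 1.12 ± 0.41, adjusted p = 0.0842). Of 7 colon epithelium markers 1 passed, where 9.02% of all genes tested passed. It was Cdh17, an intestinal cadherin, which rose by 0.49 ± 0.13 on the log2 scale (adjusted p = 0.0119). Within blocks 1, 2 and 3 its log2 fold changes were 0.29 ± 0.17, 1.33 ± 0.17 and 0.32 ± 0.16 (adjusted p = 0.555, 1.94e-06 and 0.317). For Cdh17 the test of a difference between blocks passed (adjusted p = 0.012).

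With palmitic acid the keratins that rose were type I hair keratins at low levels. In batch 1, 2 of 22 keratins tested rose (Krt32 and Krt33a) and 0 fell, where 0.559% of the 9845 genes tested passed, 0.315% higher and 0.244% lower. Krt32 entered the fit only through treated libraries, which favours a higher value, so the count of 2 partly reflects the filter. In batch 2, 1 of 22 rose (Krt33a) and 0 fell, where 0.325% of all genes passed, 0.183% higher and 0.142% lower. The batches share their 3 controls, so their values are given side by side and are not independent. The 15 hair keratins, of which 10 were tested in this fit, summed to 132 ± 35.3 CPM in batch 1 and 144.9 and 196 CPM in the 2 libraries of batch 2, against 41.7 ± 6.33 CPM in controls.

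Krt33a, a hair cortex keratin, had 42.2, 12.7 and 37.5 CPM in batch 1 and 26.3 and 53.3 CPM in batch 2, against 1.29, 10.6 and 6.75 CPM in controls. All 5 treated libraries lay above all 3 controls, batch 1 replicate 2 by a small margin. Its log2 fold change was 2.12 ± 0.49 in batch 1 (adjusted p = 0.0169) and 2.48 ± 0.52 in batch 2 (adjusted p = 0.00628). The batch 1 call was lost without control 1 (adjusted p = 0.0996), control 3 (0.0734), batch 1 replicate 1 (0.262) or batch 1 replicate 3 (0.252), and with limma-voom (0.653). The batch 2 call was lost without batch 2 replicate 2 (log2 fold change 1.92 ± 0.65, adjusted p = 0.416) and with limma-voom (adjusted p = 0.35).

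Krt32, a hair cuticle keratin, had 3.45, 4.60 and 31.2 CPM in batch 1 and 18.7 and 5.41 CPM in batch 2, against 1.29, 0.783 and 0.45 CPM in controls. The groups did not overlap, but the controls held only 1, 2 and 1 counts, and Krt32 entered the fit only through treated libraries. Its log2 fold change was 4.03 ± 1.0 in batch 1 (adjusted p = 0.0264) and 3.94 ± 1.03 in batch 2 (adjusted p = 0.065). The batch 1 call was lost without control 1 (0.0692), control 2 (0.0689), control 3 (0.0984) or batch 1 replicate 3, which held 65 counts (log2 fold change 2.34 ± 1.22, adjusted p = 0.877), and with limma-voom (0.756). Gm11571 overlaps Krt32 on the other strand, and whether counting used strand is not stated.

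The promoter window of Krt32 is shown because this gene rose with palmitic acid. It is the RefSeq sequence at chr11:100088220-100088519 (minus strand, GRCm38.p6), with the same motifs in capitals.
Krt32: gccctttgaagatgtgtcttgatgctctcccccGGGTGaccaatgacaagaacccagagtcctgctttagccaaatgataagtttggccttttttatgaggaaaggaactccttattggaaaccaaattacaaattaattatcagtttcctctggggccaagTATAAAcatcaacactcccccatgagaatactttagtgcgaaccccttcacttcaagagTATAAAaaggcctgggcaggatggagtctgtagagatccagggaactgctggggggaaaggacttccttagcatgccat
It held TATAAA at -88 and -29 and a CACCC match, as GGGTG, at -217.

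Other hair keratins did not pass. Krt33b, a cortex keratin beside Krt33a, had 21.1, 23.0 and 12.5 CPM in batch 1 and 17.3 and 30.0 CPM in batch 2, against 0, 7.44 and 4.499 CPM in controls (log2 fold changes 2.02 ± 0.61 and 2.34 ± 0.65, adjusted p = 0.137 and 0.0972). Krt36 had 4.74, 8.85 and 12.98 CPM in batch 1 and 15.2 and 7.90 CPM in batch 2, against 0, 3.53 and 3.15 CPM in controls (log2 fold changes 1.76 ± 0.85 and 2.15 ± 0.91). Both had every treated library above every control, which held for 5 of 22 keratins in batch 1 and 6.92% of all genes, and for 10 of 22 keratins in batch 2 and 10.9% of all genes. Krt34 had 36.2, 17.7 and 32.7 CPM in batch 1 and 37.9 and 50.3 CPM in batch 2, against 25.8, 14.9 and 17.1 CPM in controls (log2 fold changes 0.63 ± 0.39 and 1.24 ± 0.42). Krt87, a type II hair keratin, was at 0, 10.6 and 15.4 CPM in batch 1 and 0.271 and 1.66 CPM in batch 2, against 1.29, 1.18 and 2.25 CPM in controls. The 8 hair keratins other than Krt32 and Krt33a had a median log2 fold change of 1.89 in batch 1 and 2.20 in batch 2. Over all genes tested it was 0.01 and -0.01. Some of the 8 entered the fit only through treated libraries, such as Krt39 and Krt84 (0, 2 and 1, and 0, 4 and 1 counts in controls). That favours higher values, so the median is a description and not a test of a rise.

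Krt33a, Krt33b, Krt34 and Krt31 lie side by side and share 28.9%, 36.4%, 42.0% and 38.9% of their 31-base words with other genes, mostly each other, so their counts may be divided unevenly. Their sum, which does not depend on how reads were divided among them, was 53.4, 83.2 and 99.5 CPM in the batch 1 libraries in rising order and 88.6 and 135.6 CPM in batch 2, against 27.1, 28.8 and 33.3 CPM in controls. The treated and control libraries did not overlap in this sum, which includes Krt33a, already called. Of all genes tested, 6.92% in batch 1 and 10.9% in batch 2 had every treated library above every control. Of 8 hair follicle markers, 3 were tested and 0 passed in either batch. They summed to 37.3 CPM in batch 1 (31.02 to 43.5) and 49.3 CPM in batch 2 (30.3 to 68.2), against 35.1 CPM in controls (19.8 to 50.3). The 3 tested leaned different ways. Krtap3-1 had log2 fold changes of 0.83 ± 0.43 in batch 1 and 1.31 ± 0.47 in batch 2. Foxn1 had -1.83 ± 0.95 and -2.04 ± 1.1, and Tchh -0.96 ± 1.36 and -1.65 ± 1.6. Hoxc13, a hair follicle transcription factor that drives hair keratin genes, had no count in any library, nor had Krt25, Krt71 or Krtap5-1. The part of such cells in the hair keratin result was not tested.

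**Figure D4:**
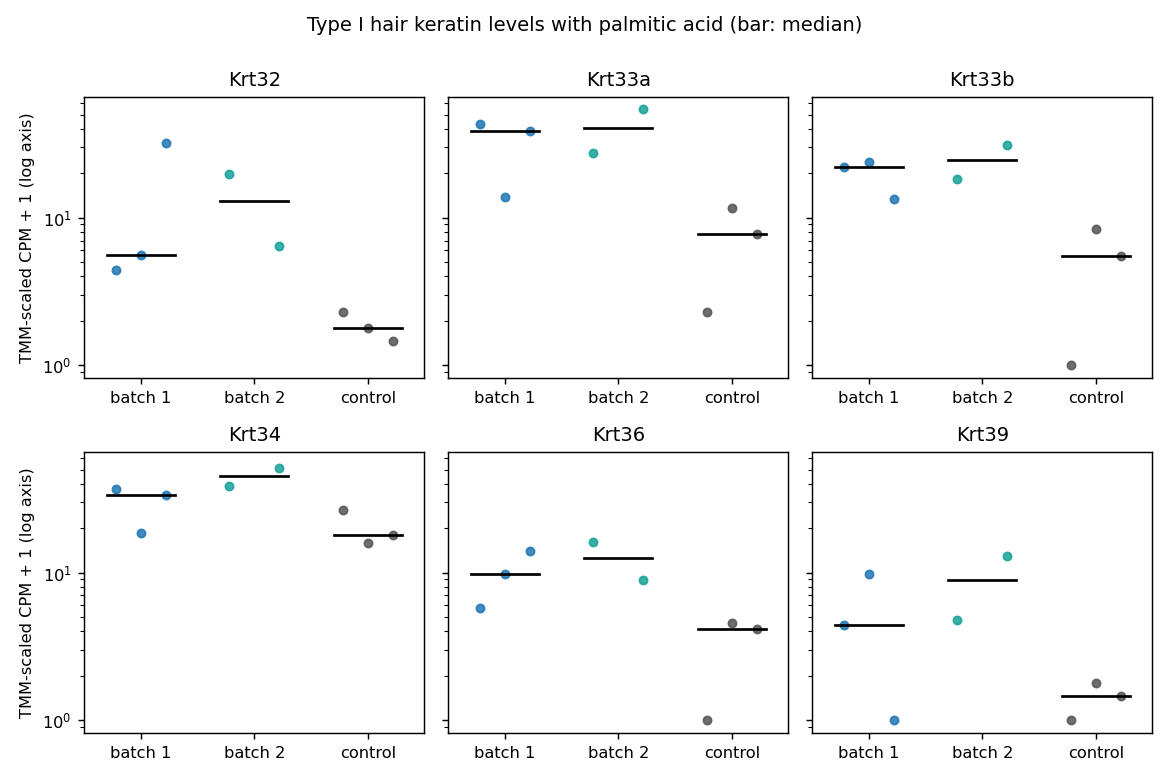
TMM-scaled CPM + 1 (vertical log axis) of 6 type I hair keratins in each library of palmitic acid batch 1, batch 2 and the shared controls, with a bar at the median. Every treated library lies above every control for Krt32, Krt33a, Krt33b and Krt36, while Krt34 overlaps in batch 1.

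Simple and squamous keratins did not pass in either palmitic acid batch. Krt8 had 191 ± 19.8 CPM in batch 1, 176 and 201 CPM in batch 2, and 249 ± 52.6 CPM in controls, with log2 fold changes of -0.38 ± 0.17 and -0.39 ± 0.19 (adjusted p = 0.569 and 0.661). Krt18 had 251 ± 25.9 CPM in batch 1, 249 and 254 CPM in batch 2, and 288 ± 14.4 CPM in controls (log2 fold change -0.20 in both, SE 0.15 and 0.17). Both batch 2 libraries lay below every control for Krt18, as for Krt14, where 9.02% of all genes did. Krt19 had 379 ± 39.2 CPM in batch 1, 352 and 364 CPM in batch 2, and 351 ± 5.41 CPM in controls. Krt7 had log2 fold changes of 0.17 ± 0.17 in batch 1 and 0.04 ± 0.18 in batch 2.

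Krt20 had 5.17, 0 and 0.481 CPM in batch 1 and 5.42 and 1.25 CPM in batch 2, against 5.16, 6.27 and 0 CPM in controls (log2 fold changes -0.97 ± 1.36 and -0.13 ± 1.47). Krt4 had 45.7, 26.5 and 30.3 CPM in batch 1 and 42.8 and 34.9 CPM in batch 2, against 34.8, 39.2 and 49.9 CPM in controls (log2 fold changes -0.29 ± 0.33 and -0.10 ± 0.37). Krt14 had 1.72, 0.354 and 3.36 CPM in batch 1 and 1.35 and 2.08 CPM in batch 2, against 9.02, 10.97 and 2.25 CPM in controls (log2 fold changes -2.02 ± 1.21 and -2.08 ± 1.39, adjusted p = 0.735 and 0.858). Krt13 and Krt15 were too low for this fit. No desmosome, keratin linker, other intermediate filament or keratin-linked transcription factor gene passed in either batch.

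Between the batches (batch 2 minus batch 1), 0 of 22 keratins passed in edgeR, where 0.102% of all genes did, 0.0609% higher and 0.0406% lower. At an unadjusted p under 0.05 there was 1, Krt87 (log2 difference -3.18 ± 1.44), and the share over all genes at that threshold was not computed. DESeq2 and limma-voom also gave 0 calls. For Krt33a the log2 difference was 0.37 ± 0.48 and for Krt32 -0.09 ± 0.83.

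The difference of the treatment effects, carmofur over its controls minus palmitic acid batch 1 over its controls, was tested over all 35 libraries for 31 keratins. Krt4 passed, with a log2 difference of 2.44 ± 0.50 (adjusted p = 0.00822), where 0.69% of the 14052 genes tested passed, 0.548% higher and 0.142% lower. Without batch 1 replicate 2 (adjusted p = 0.0603) or batch 1 replicate 3 (adjusted p = 0.0753) it did not. Krt14 (4.88 ± 1.35, adjusted p = 0.0767), Krt13 (4.44 ± 1.47, adjusted p = 0.248) and Krt20 (3.80 ± 1.40, adjusted p = 0.363) did not pass. The hair keratins Krt33a (-1.66 ± 1.19, adjusted p = 0.993) and Krt32 (-3.15 ± 2.56, adjusted p = 1) did not pass either, so the rise with palmitic acid is not shown to differ from the response to carmofur.

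**Figure D5:**
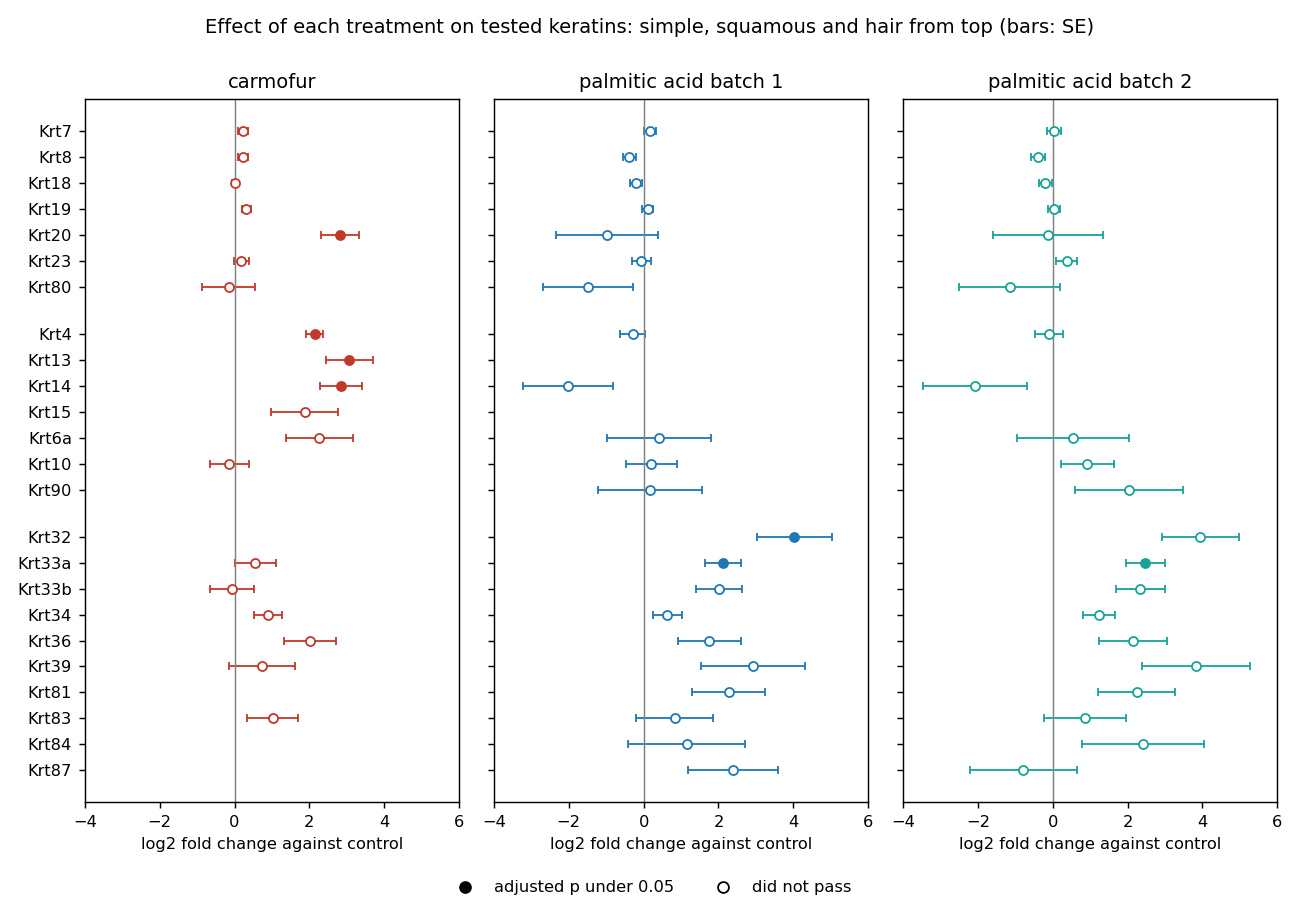
Log2 fold change of each treatment over its own controls (horizontal axis, SE bars) for the tested keratins, with simple, squamous and hair keratins from top to bottom and filled points at an adjusted p under 0.05; a gene without a point was not tested. Filled points are Krt4, Krt13, Krt14 and Krt20 for carmofur, Krt32 and Krt33a for palmitic acid batch 1 and Krt33a for batch 2.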

How the data were processed

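Polyadenylated RNA was measured in 35 libraries made with a directional kit, per the labels' protocols. The authors deposited estimated counts, whole numbers for 54354 genes, and the submitters' processing notes name Salmon 1.3.0 and mm10. The annotation and the strand setting are not stated. Groups came from the labels.

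Counts were tested with edgeR 4.0.16 in R 4.3.3 (TMM, default expression filter, robust quasi-likelihood F test, Benjamini-Hochberg over all genes tested, threshold 0.05; values used as deposited). Palmitic acid (8 libraries, 9845 genes), carmofur (27, 9992) and all libraries (35, 14052) were fitted apart, with biological coefficients of variation of 0.407, 0.75 and 0.969. The SE is the log2 fold change divided by the square root of F. A level of 3 counts equals 0.292 to 3.87 CPM, which limits what a count of 0 shows. Over 178 pairs of libraries within groups none was identical (chi-square over its degrees of freedom at least 7.4). The tests were checked on simulated counts.

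Members and lists were chosen with earlier results of these data known. All keratins in a fit could be named, and of other lists up to 4 genes that passed. Gene positions, transcript lengths and shared words of 31 bases came from GENCODE M21 transcripts; Krt74, annotated as a pseudogene, is not a member. Alternatives were RLE scaling, DESeq2 1.42.0, limma 3.58.1 voom, other filters, libraries or library sets left out, the replicate number or library block as a term, summed sets and merged batches. Replicate numbers did not pair libraries (correlations of deviations between -0.03 and 0.05).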

Additional observations from a re-analysis of the deposited data

Results flagged for a closer look

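The carmofur effect on Krt4, the suprabasal mucosal keratin, exceeded the palmitic acid batch 1 effect by 2.44 on the log2 scale in a test of the difference itself (adjusted p = 0.00822). Krt4 rose with carmofur (2.14 ± 0.23) and was at -0.29 ± 0.33 with palmitic acid batch 1. Total counts were between 3127275 and 10609563 in carmofur libraries and between 1663750 and 8124707 in their controls. They were between 2138905 and 2845017 in batch 1 and between 762888 and 2511723 in the palmitic acid controls. The part of depth in the difference was not tested.

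The carmofur effect on Krt20, the keratin of differentiated intestinal surface cells, differed between the 3 library blocks (adjusted p = 0.0365). Controls of block 2 held 1 count of Krt20 in all, against 60 counts in the 3 controls of block 1 and 233 in the 6 controls of block 3, while carmofur libraries held 1022 counts in block 2, 990 in block 1 and 846 in block 3. The blocks come from library numbers, and what they stand for was not tested.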

How the results depend on the processing

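The carmofur calls of Krt4, Krt13 and Krt20 held under all 18 alternatives run. Of 19 tested keratins 4 were called in the main analysis (901 of 9992 genes in all). Without a filter 14 of 36 keratins were (12 higher; 3541 of 24076 genes), of which 8 are not among those 19. With limma-voom 7 of 19 were (1237 of 9992 genes), and with a library set left out between 4 and 7. A replicate block gave 6, adding Krt7 and Krt19. For palmitic acid batch 1, where 2 were called, limma-voom gave 0, the replicate block 0 (adjusted p = 0.173 for Krt32 and 0.0593 for Krt33a), and leaving out 1 library between 0 and 2. For batch 2, where 1 was called, no filter gave 2 (41 of 20153 genes, against 32 of 9845 in the main analysis), limma-voom 0 (26 of 9845), merged batches 2 (70 of 9112), and leaving out 1 library between 1 and 2; the replicate block gave 1. The difference between batches gave 0 under all 14 alternatives. The difference between carmofur and palmitic acid batch 1 effects gave 2 without the 3 libraries that stood apart (adding Krt14) and between 0 and 1 with a palmitic acid library left out, against 1 in the main analysis. The difference between library blocks gave 0 without a filter and 0 without those 3 libraries, against 1. The causes were not tested. No direction reversed. Replicate numbers share only a number here, since no pair of libraries deviated together. Depth limits the palmitic acid results: the shallowest control had 762888 counts, where 3 counts equal 3.87 CPM. With 2 or 3 libraries a group, leaving 1 out of batch 2 leaves 1 library, assumed to vary like the other groups.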

Other observations

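Of the keratins too low for the carmofur fit, some had counts mostly in carmofur libraries and others mostly in controls, and no test is drawn on here. Krt27, of the inner root sheath, averaged 4.53 ± 5.63 CPM with carmofur (0 to 17.7) and 0.258 ± 0.265 CPM in controls (0 to 0.82), and lay above every control in 7 of 15 carmofur libraries. Krt12, the corneal keratin, had counts in 6 of 15 carmofur and 0 of 12 control libraries, up to 8.52 CPM. Krt79, of sebaceous duct cells, had counts in 10 of 15 carmofur libraries, up to 7.07 CPM, and in 3 of 12 controls, up to 0.305 CPM. Krt16, an activation keratin, had counts in 6 of 15 carmofur libraries, up to 5.502 CPM, and in 1 of 12 controls, at 0.273 CPM. Krt86, a type II hair keratin, had counts in 3 of 15 carmofur libraries, up to 0.162 CPM, and in 4 of 12 controls, up to 4.87 CPM. Krt42 had counts in 0 of 15 carmofur libraries and in 2 of 12 controls, up to 3.26 CPM. These genes were chosen after their values were seen.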
